A study of Mus musculus with 2 samples.

Results

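Fibroblasts of a mouse pancreatic tumour that had switched on a p16-driven red reporter were compared with fibroblasts of the same library that held little of the reporter transcript. Cells were taken from the library sorted as Tom positive. A barcode was kept if it had at least 5000 unique molecular identifiers (UMIs, counted transcripts), at least 500 genes and at most 10% mitochondrial UMIs. It also needed at least 3000 CPM (counts scaled to 1000000 UMIs per cell) of Col1a1, Col1a2 and Col3a1 together, and less than 300 CPM of Tyrobp, Pecam1, Rgs5 and Epcam together. Of 7568 barcodes, 3543 passed the first 3 limits, 1613 also passed the collagen limit and 1488 passed all. Of these, 268 held 500 CPM of tdTomato or more and are called reporter-high, and 1054 held less than 100 CPM and are called reporter-low. The 166 fibroblasts between those levels entered neither group. The 1322 compared cells were part of 21172 barcodes in the series.

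Both libraries came from mice of the genotype p16-CreERT2/R26-LSL-tdTomato, which carried an allograft of pancreatic ductal adenocarcinoma. Stromal cells were sorted from the tumours by tdTomato fluorescence, and each fraction gave 1 library of single-cell transcript counts. Reporter-high and reporter-low cells therefore shared genotype, tumour tissue, sort and library, and the third group shown for comparison was 2283 fibroblasts of the Tom negative library chosen by the same limits, all below 100 CPM of tdTomato. The number of animals, their age, the inducing treatment and the time after it were not given in the sources used here. With 1 library per fraction no difference has a replicate check and no test was run, so intervals are for counting error only (95%).

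The gene Cdkn2a encodes p16, a protein that blocks the kinases that start the cell cycle and accumulates in senescent cells, and in this strain the p16 promoter drives a Cre enzyme that acts only after an inducer is given. Once Cre has removed a stop cassette, tdTomato is made from the broadly active Rosa26 locus and stays on in the cell and its daughters, so the reporter records past activity of the p16 promoter and not its level at the time of sampling. Fibroblasts of pancreatic tumours build the collagen-rich matrix and secrete cytokines, and occur in subsets that differ in matrix, contractile and inflammatory genes. Senescent cells of many kinds secrete chemokines, growth factors and proteases, and p21, the product of the p53 target Cdkn1a, is the other cell cycle inhibitor commonly used to mark them.

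Fibroblast subsets held the reporter unequally, so the groups were compared within 5 strata. A cell's stratum was whichever of Thbs4, C7, Dmkn, Cemip and Stra6 had the highest z-score in it, and every stratum had equal weight in the levels given below. Reporter-high cells were 64 of 151 cells in the Dmkn stratum (42.4%, Wilson interval 34.8 to 50.4%) and 45 of 149 in the Stra6 stratum (30.2%, 23.4 to 38.0%). They were 103 of 597 in the C7 stratum (17.3%, 14.4 to 20.5%), 36 of 374 in the Thbs4 stratum (9.63%, 7.03 to 13.0%) and 20 of 217 in the Cemip stratum (9.22%, 6.05 to 13.8%). The reporter-low group numbered 66 cells in the Dmkn, 76 in the Stra6, 430 in the C7, 300 in the Thbs4 and 182 in the Cemip stratum. The matching was coarse. Of the 1488 fibroblasts, 544 had no marker above its mean, and 489 of those fell in the C7 stratum. The stratum genes themselves still differed, with Thbs4 at 154.5 CPM in reporter-high and 334.7 CPM in reporter-low cells and Cemip at 44.2 and 69.9 CPM.

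**Figure D1:**
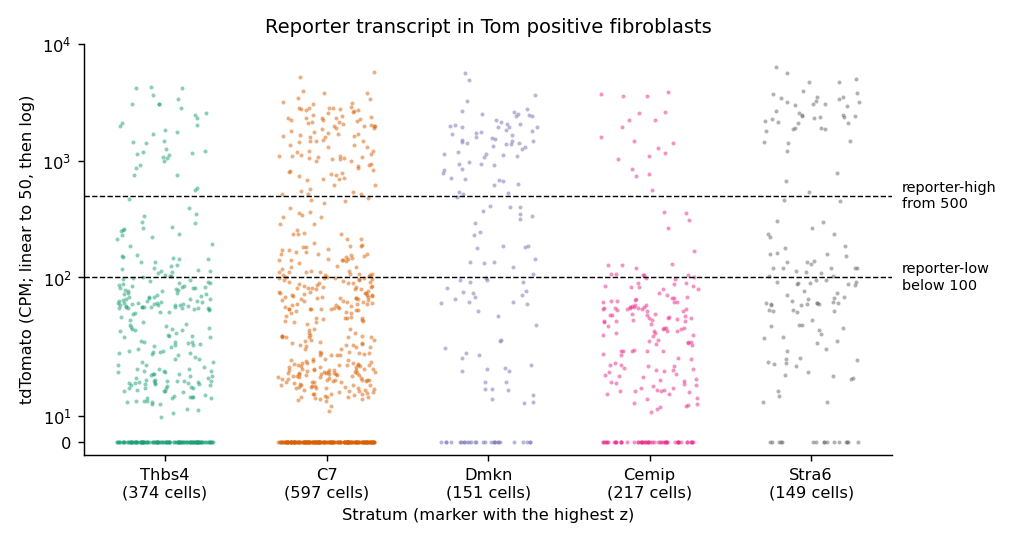
Reporter transcript of each Tom positive fibroblast (tdTomato, CPM, linear to 50 and logarithmic above) by stratum; each point is a cell and dashed lines mark the limits of 500 and 100 CPM. Reporter-high cells were 42.4% of the Dmkn stratum and 9.22% of the Cemip stratum.

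The reporter chose the groups, so its own level is a description. tdTomato stood at 2020 CPM in reporter-high cells and 31.3 CPM in reporter-low cells, of which 405 held no tdTomato UMI. The upper limit fell in a thinly populated range, with the nearest cells at 514.0 and 492.3 CPM, 10 cells from 400 to 500 CPM and 13 from 500 to 600 CPM. The lower limit cut through a denser range, with the nearest cells at 100.3 and 99.7 CPM, 65 cells from 80 to 100 CPM and 41 from 100 to 120 CPM. Cells called reporter-low were therefore not all without tdTomato UMIs. Whether those UMIs came from the cell itself was not tested.

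The groups were alike in depth and carried the same fibroblast genes. Median depth was 41291.5 UMIs in reporter-high cells (range 5502 to 122519) and 41522 in reporter-low cells (range 5125 to 113205), with medians of 6264.5 and 6430 genes and of 3.02% and 3.50% mitochondrial UMIs. The 10 fibroblast markers summed to 69286 CPM in reporter-high and 73513 CPM in reporter-low cells, and none of the 10 lay past 1.5-fold. Most of both sums came from Col1a1, Col1a2 and Col3a1, which the selection required. Among markers that it did not use, Dcn was 3130 and 3556 CPM, Lum 567.0 and 645.6 and Pdgfra 304.8 and 345.0. Pdgfrb was 148.3 and 131.8 CPM, Pdpn 401.8 and 493.5 and Fap 128.7 and 131.8. Dividing cells, with 50 CPM or more of the division genes Mki67 and Top2a were 7.84% of reporter-high cells (Wilson interval 5.18 to 11.7%) and 7.50% of reporter-low cells (6.06 to 9.24%). Among barcodes, 110 of 268 reporter-high and 437 of 1054 reporter-low ones also occurred in the Tom negative library, out of 3660 that the libraries share. None of them had more than 5 times the UMIs there.

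Most measured markers of macrophages were higher in reporter-high than in reporter-low cells. C1qa, a complement subunit made by macrophages, was 28.2 CPM in reporter-high cells, 4.38 CPM in reporter-low cells and 15.7 CPM in Tom negative fibroblasts. Of 12 macrophage markers 9 were measured, and 8 of those were past 1.5-fold higher in reporter-high cells, against 1.7% of all measured genes. The 8 include Tyrobp, whose level the selection of cells had limited. The summed level of the 12 markers ranged over strata from 1260 to 11608 CPM in reporter-high and from 442 to 15220 CPM in reporter-low cells, most of it Spp1. In the 1213 cells of this library with at least 300 CPM of Tyrobp, called Tyrobp-high, C1qa was 1710 CPM and tdTomato 1031 CPM, so RNA of those cells in the ratio of C1qa would bring 17.0 CPM of tdTomato to the reporter-high group. Dendritic cell markers summed to 63.6 and 20.4 CPM, endothelial markers to 38.0 and 28.3 CPM, pericyte or smooth muscle markers to 390.3 and 480.9 CPM, and epithelial markers to 6.66 and 7.63 CPM with Cldn4 at 0 in both. Lymphocyte, mast cell, mesothelial and Schwann markers each summed to under 7 CPM. How far RNA of other cells contributed to the differences below was not tested. For some of the genes that macrophages also carry, the amount that the ratio to C1qa would bring is given. That amount depends on the marker chosen. Lyz2 was 49.3 CPM in reporter-high and 5811 CPM in Tyrobp-high cells, a smaller share than that of C1qa. Csf1r was 18.5 and 391.0 CPM, a larger share.

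Few genes separated the groups. Among 8701 genes at 10 CPM or more in either group, 148 were at least 1.5-fold higher in reporter-high cells (1.7% of those measured) and 121 at least 1.5-fold lower (1.39%), on the scale of log2 of CPM plus 1. Of these, 54 were higher in all 5 strata (0.621% of measured genes) and 58 lower in all 5 (0.667%). The median log2 difference of all measured genes was 0.01, with medians of -0.02 to 0.04 in single strata. Counting error at these depths was small beside the 1.5-fold limit for most genes, but the smallest stratum of the reporter-high group held 20 cells, and a gene carried by 1 or 2 of them can pass the limit there.

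**Figure D2:**
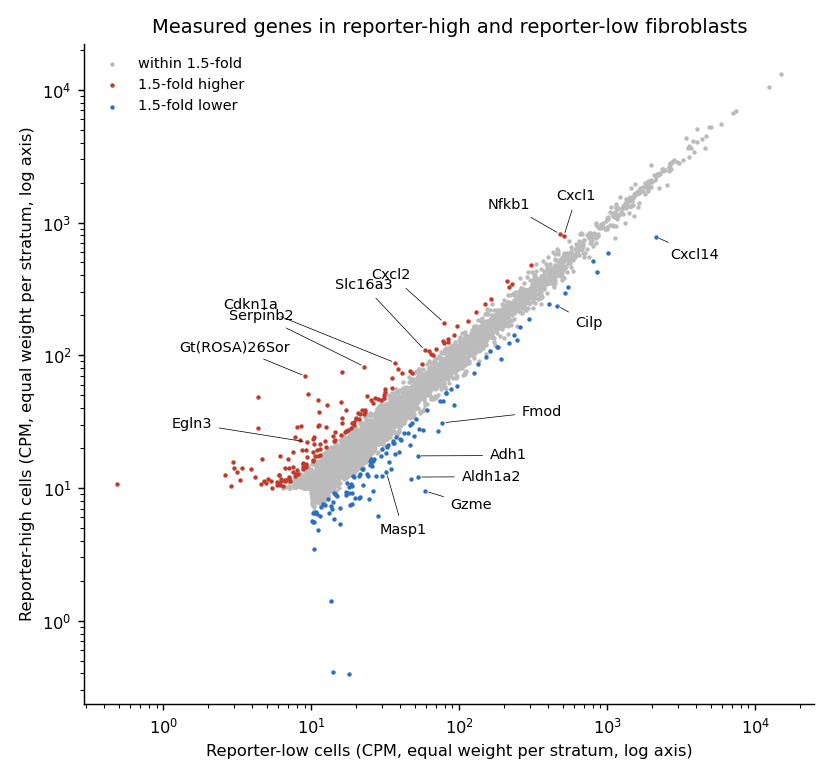
Level of each measured gene in reporter-low cells (horizontal) and reporter-high cells (vertical), in CPM with equal weight per stratum, on logarithmic axes; red and blue points are the 148 genes past 1.5-fold higher and the 121 past 1.5-fold lower. Genes that defined the groups are not drawn.

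Among genes at 50 CPM or more that were higher in every stratum, the largest ratio belonged to the transcript of the reporter's own locus. Gt(ROSA)26Sor (chr6:113067428-113077333 in mm10, minus strand), the noncoding transcript of the Rosa26 locus, was 70.2 CPM in reporter-high and 9.10 CPM in reporter-low cells of the Thbs4 stratum, 63.2 and 7.41 in the C7 stratum, 53.4 and 7.68 in the Dmkn stratum, 84.8 and 10.3 in the Cemip stratum and 75.3 and 11.2 in the Stra6 stratum. The groups stood apart by a similar amount in all 5. Weighted over strata the levels were 69.4 CPM (63.8 to 75.4) and 9.14 CPM (8.07 to 10.4), a ratio of 7.60, and Tom negative fibroblasts held 9.90 CPM. Reporter-high cells with 500 to under 2000 CPM of tdTomato held 48.2 CPM of it and those with 2000 CPM or more held 94.6 CPM. The reporter cassette lies within this locus, so counts of the locus and counts of the cassette's transcript may share reads, and the gene is not independent of the reporter that chose the cells.

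Cdkn1a came next by the same ranking. It was 109.7 CPM in reporter-high and 23.9 CPM in reporter-low cells of the Thbs4 stratum, 101.3 and 24.9 CPM in the C7 stratum and 128.0 and 42.8 CPM in the Dmkn stratum. In the Cemip stratum it was 30.0 CPM (20.1 to 43.1) and 26.7 CPM (23.4 to 30.4), and in the Stra6 stratum 69.9 CPM (59.3 to 81.8) and 66.2 CPM (58.6 to 74.5). The difference was thus carried by 3 strata, and in the other 2 the counting intervals overlapped. Weighted over strata, Cdkn1a (chr17:29090976-29100727 in mm10, plus strand) was 87.8 CPM (82.1 to 93.8) against 36.9 CPM (34.5 to 39.4), a log2 difference of 1.23 and a ratio of 2.38. Its level followed the reporter upward through all 5 reporter levels, from 24.6 CPM in fibroblasts with no tdTomato UMI through 39.8, 66.0 and 88.8 CPM to 106.3 CPM in those at 2000 CPM of tdTomato or more. The smallest strata of these 5 levels held 16, 39, 15, 12 and 8 cells, at equal weight, and no intervals are given for the levels. Tom negative fibroblasts held 57.3 CPM of Cdkn1a, between the groups. Macrophages carry Cdkn1a too, at 392.8 CPM in Tyrobp-high cells, and the ratio to C1qa would bring 6.48 of the 87.8 CPM. With every cell thinned to 5000 UMIs, a Cdkn1a UMI was found in 22.0% of reporter-high cells, 11.2% of reporter-low cells and 17.4% of Tom negative fibroblasts. Tyrobp-high cells had one in 76.3%, and without thinning the shares were 50.6%, 35.3% and 48.7% in the fibroblast groups.

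Cdkn2a, whose promoter the reporter reads, differed far less. In the Thbs4 stratum it was 22.2 CPM (15.1 to 31.5) in reporter-high and 12.4 CPM (10.6 to 14.5) in reporter-low cells, and in the C7 stratum 18.7 CPM (14.6 to 23.5) and 11.2 CPM (9.64 to 12.9). The intervals overlapped in the Dmkn stratum at 9.09 and 6.95 CPM, in the Cemip stratum at 16.6 and 12.0 CPM, and in the Stra6 stratum, where both groups were highest, at 31.8 and 33.7 CPM. Weighted over strata Cdkn2a was 19.7 CPM (16.8 to 22.9) against 15.2 CPM (13.8 to 16.8), with a log2 difference of 0.35, which is short of 1.5-fold. Tom negative fibroblasts held 16.4 CPM. Only the cells at 2000 CPM of tdTomato or more, at 26.2 CPM, stood apart from the other reporter levels, which lay between 14.2 and 16.8 CPM. That highest level had a stratum of only 8 cells, and its Cdkn2a value is given without an interval. The gene also encodes Arf from another first exon, and counts per gene do not separate the 2 products. The neighbouring inhibitor Cdkn2b was 5.64 CPM (4.17 to 7.57) and 6.68 CPM (5.79 to 7.73), and Trp53, which encodes p53, was 47.2 and 48.6 CPM.

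Other genes of cell cycle arrest mostly stayed within 1.5-fold. Of 18 listed cell cycle inhibitors and senescence genes 13 were measured. Cdkn1a alone was past 1.5-fold higher, against 1.7% of all measured genes, with none lower and a list median of 0.11. The Cdk inhibitors Cdkn1b and Cdkn1c, the nuclear lamina gene Lmnb1 and the lysosomal Glb1 all differed by 0.13 or less on the log2 scale. Of 19 measured p53 target genes 2 were past 1.5-fold higher, Cdkn1a and Pmaip1, a promoter of cell death, against 1.7% of all measured genes, and none lower. The list median was 0.17, and 18 of the 19 lay above 0, among them Mdm2, which targets p53 for destruction, at 78.5 and 56.8 CPM (3.33 and 0.517 CPM from the ratio to C1qa), and Ccng1 at 42.7 and 32.5 CPM. Fas, a death receptor, was the other way at 11.5 and 15.2 CPM. Pmaip1 had 30.7% of its reporter-high counts in 1 cell and a log2 difference of 0.74, which became 0.06 without each gene's highest cell.

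**Figure D3:**
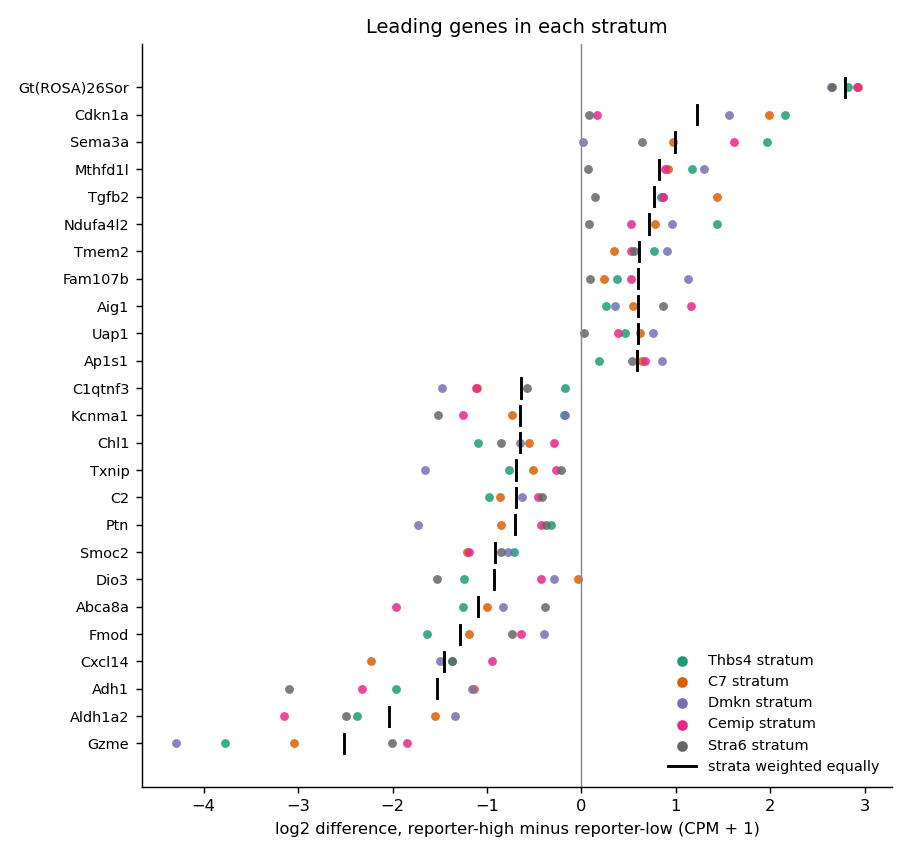
Log2 difference in level, reporter-high minus reporter-low, of 25 of the 27 ranked genes that passed 1.5-fold on the same side in every stratum at 50 CPM or more; points are the 5 strata and bars the value with strata weighted equally. Gt(ROSA)26Sor differs alike in all strata, while Cdkn1a spans 0.08 to 2.15.

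Beside these, 10 more of the ranked genes at 50 CPM or more were past 1.5-fold and higher in every stratum. Cxcl2 was so too, but was not ranked because both groups were below 1/5 of its level in Tyrobp-high cells. Sema3a, a secreted guidance cue for nerve and vessel growth, was highest in the Stra6 stratum at 166.9 CPM in reporter-high and 106.7 CPM in reporter-low cells, and was 64.5 and 15.7 CPM in the Thbs4 stratum and 91.1 and 29.1 CPM in the Cemip stratum. In the Dmkn stratum the levels were 16.7 and 16.5 CPM. Over strata it was 78.2 against 38.8 CPM, a ratio of 2.01. Across reporter levels Sema3a was 32.1, 42.7, 67.2, 41.2 and 111.3 CPM from none to the highest, so reporter-high cells below 2000 CPM of tdTomato were near the reporter-low level. Tgfb2, a ligand of the TGF-beta family, was 165.9 against 96.8 CPM. Mthfd1l, a mitochondrial enzyme of folate metabolism, was 73.9 against 41.3 CPM. Ndufa4l2, which is induced by hypoxia-inducible factors, was 213.2 against 129.2 CPM. The cell surface hyaluronidase Tmem2 was 141.4 against 92.5 CPM, and Uap1, which makes a sugar nucleotide used in hyaluronan, 329.2 against 216.7 CPM. Fam107b, Aig1 and Ap1s1 had ratios of 1.51 to 1.53. With Leiden clusters of the same cells as strata, Ndufa4l2, Tmem2, Fam107b, Uap1 and Ap1s1 were short of 1.5-fold, with log2 differences of 0.27 to 0.54.

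Genes of glycolysis and of the response to low oxygen were higher together in 4 of the 5 strata. Cells short of oxygen stabilise hypoxia-inducible factors, which raise glucose uptake, glycolytic enzymes, lactate export and the growth of vessels. Of 26 listed genes 23 were measured, 6 of them past 1.5-fold higher and none lower, against 1.7% of all measured genes higher. All 23 lay above 0, with a list median of 0.39 beside 0.01 for all measured genes. By stratum the list median was 0.93 in the Thbs4 stratum, 0.78 in the C7 stratum, 0.83 in the Dmkn stratum and 0.23 in the Cemip stratum. In the Stra6 stratum it was -0.20, with 3 of 23 genes above 0. The genes were read in the same cells and are not independent of each other.

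Slc16a3, which exports lactate, shows the pattern in single strata. It was 100.3 CPM (84.4 to 118.4) in reporter-high and 25.5 CPM (22.8 to 28.4) in reporter-low cells of the Thbs4 stratum, 60.6 and 22.9 CPM in the C7 stratum, and 190.1 and 64.4 CPM in the Dmkn stratum. In the Cemip stratum it was 88.0 and 47.0 CPM, and in the Stra6 stratum 106.1 CPM (93.0 to 120.7) and 132.9 CPM (122.0 to 144.5). Reporter-high cells were above reporter-low cells in 4 strata and below them in the Stra6 stratum, where reporter-low cells were already high. Over strata Slc16a3 was 109.0 against 58.5 CPM, a log2 difference of 0.89. Egln3, an oxygen-sensing hydroxylase that is itself induced by low oxygen, was 22.2 CPM (19.1 to 25.8) against 9.32 CPM (8.11 to 10.7), a log2 difference of 1.17. It was 40.9 and 6.95 CPM in the Dmkn stratum but 10.4 and 26.9 CPM in the Stra6 stratum.

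Other members of the list moved less. Pdk1, a kinase that keeps pyruvate out of mitochondria, was 33.9 against 20.0 CPM and the only one of the 6 that was higher in all 5 strata. Vegfa, the growth factor of vessels, was 180.2 against 113.8 CPM, Bnip3, which marks mitochondria for removal, 122.8 against 78.8 CPM, and the glycolytic enzyme gene Eno1 342.4 against 227.0 CPM. Just short of 1.5-fold were Pfkl, at 62.6 and 41.6 CPM, and Pgk1, at 379.3 and 257.9 CPM. Gapdh was 1314 and 1053 CPM and Ldha 483.4 and 387.1 CPM. Adm, another hypoxia-induced secreted factor, was level over strata at 181.1 and 176.2 CPM. Of 29 measured genes of the respiratory chain and ATP synthase none was past 1.5-fold either way, and their median was -0.01.

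**Figure D4:**
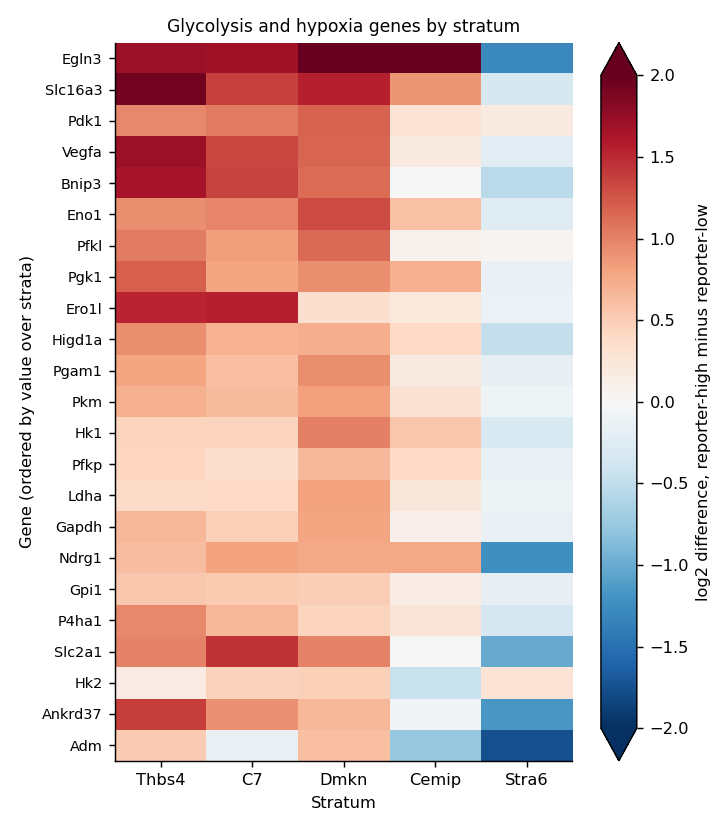
Log2 difference in level, reporter-high minus reporter-low (colour), of the 23 measured genes of glycolysis and hypoxia response (rows) in each stratum (columns). The Thbs4, C7 and Dmkn columns are almost wholly above 0, and the Stra6 column is below 0 for 20 genes.

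The Tom negative library placed the low group, more than the high group, apart for these genes. The median of the list was 0.13 for reporter-high minus Tom negative fibroblasts and -0.34 for reporter-low minus Tom negative fibroblasts. Slc16a3 was 81.3 CPM and Egln3 14.6 CPM in Tom negative fibroblasts, each between the reporter-high and the reporter-low level. The libraries differ in sort as well as in reporter, and these cannot be told apart. Macrophages also carry the genes. The ratio to C1qa would bring 0.182 to 17.2% of the reporter-high level of the 23 members, with a median of 3.21%, highest for Egln3 (3.81 of its 22.2 CPM) and next at 6.53%. Leaving out all cells with a UMI of C1qa, C1qb or C1qc, an alternative added after the data were seen, the list median was 0.55. It was 0.72 without the Stra6 stratum and 0.26 without the Dmkn stratum.

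Promoters of 3 of these genes are shown because hypoxia-inducible factors bind the letters ACGTG or GCGTG, and the genes differed together. The windows are taken from the 250 bases before the RefSeq start in GRCm38.p6 and stop before the first exon of GENCODE M21. They lie at chr11:120948817-120949052 on the plus strand, chr7:138909520-138909756 on the minus strand and chr12:54203875-54204124 on the minus strand. Capitals mark ACGTG or GCGTG on either strand, so that CACGT and CACGC are matches on the other strand.
Slc16a3: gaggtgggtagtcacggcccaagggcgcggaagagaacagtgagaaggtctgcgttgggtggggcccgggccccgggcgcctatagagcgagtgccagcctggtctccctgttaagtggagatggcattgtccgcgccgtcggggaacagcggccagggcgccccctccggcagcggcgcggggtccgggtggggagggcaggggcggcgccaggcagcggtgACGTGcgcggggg
Bnip3: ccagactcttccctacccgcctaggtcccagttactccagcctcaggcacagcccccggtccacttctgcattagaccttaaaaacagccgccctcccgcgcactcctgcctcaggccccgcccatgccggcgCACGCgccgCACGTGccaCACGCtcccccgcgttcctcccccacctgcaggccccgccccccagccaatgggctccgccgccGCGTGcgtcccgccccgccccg
Egln3: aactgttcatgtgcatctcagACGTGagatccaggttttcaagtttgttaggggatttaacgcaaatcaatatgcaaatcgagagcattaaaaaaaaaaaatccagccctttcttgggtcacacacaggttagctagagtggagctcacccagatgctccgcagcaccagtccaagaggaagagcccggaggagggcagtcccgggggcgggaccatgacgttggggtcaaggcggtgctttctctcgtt
Slc16a3 has 2 matches in its 250 bases, of which 1 lies in the run shown and the other past the start of a GENCODE transcript. Bnip3 has 5 matches, of which 1 on each strand overlap in CACGTG, and Egln3 has 1. Of the 21 measured genes of the list with a RefSeq window, 20 had a match in at least 1 window (95.2%). Among 6851 measured genes with a window 63.9% had one, among all 27025 genes with a window 41.5%, and among the 32851 single windows 38.6%. The list was drawn up as genes of glycolysis and hypoxia response, and its measured members enter whether or not they differed. Its share therefore describes the listed genes and not these cells. GC content was 62.0% in the list's windows and 60.6% in those of measured genes. A match is a description of letters and not of binding.

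NF-kB genes and the chemokines that draw neutrophils were higher in part. NF-kB is a family of factors that switch on inflammatory genes and, with them, their own inhibitors. Nfkb1 (chr3:135584655-135691547 in mm10, minus strand), which encodes the p105 precursor of p50, was 716.7 CPM in reporter-high and 372.1 CPM in reporter-low cells of the Thbs4 stratum, 716.9 and 354.3 in the C7 stratum and 1762 and 899.8 in the Dmkn stratum. It was 494.6 and 364.0 CPM in the Cemip stratum, and 396.5 CPM (370.6 to 423.6) and 413.7 CPM (394.3 to 433.8) in the Stra6 stratum. As with Cdkn1a and Slc16a3, the Stra6 stratum showed no excess. Over strata Nfkb1 was 817.4 CPM (799.7 to 835.5) against 480.8 CPM (471.8 to 489.8), a log2 difference of 0.76, and 779.3 CPM in Tom negative fibroblasts. The ratio to C1qa would bring 8.02 CPM of the reporter-high level. Among 16 measured NF-kB subunits and feedback genes 2 were past 1.5-fold higher, Nfkb1 and Rel, against 1.7% of all measured genes, and none lower, with a median of 0.20 and 13 above 0. The inhibitor Nfkbia was 575.6 and 440.4 CPM. The adhesion genes Icam1 and Vcam1 were lower, but within 1.5-fold, at 42.6 and 51.2 CPM and 119.5 and 142.8 CPM. Of 23 measured immediate early and dissociation genes none was past 1.5-fold either way. Their median was 0.15, with 20 above 0 and 3 below, and the stratum median was above 0 in 4 strata. Whether tissue dissociation contributed to the differences was not tested.

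Of 4 measured neutrophil-drawing chemokines, Cxcl1 and Cxcl2 were past 1.5-fold higher, Cxcl5 was past it lower, and Cxcl3 was within it. Among all measured genes 1.7% were past it higher and 1.39% lower. Cxcl1 was 596.3 CPM in reporter-high and 341.6 CPM in reporter-low cells of the Thbs4 stratum, 745.0 and 452.3 in the C7 stratum, 1776 and 1010 in the Dmkn stratum, 656.0 and 533.0 in the Cemip stratum and 186.0 and 210.7 in the Stra6 stratum. Over strata it was 791.8 against 509.5 CPM, with a log2 difference of 0.63, and 886.1 CPM in Tom negative fibroblasts. Tyrobp-high cells carried little of it, so that the ratio to C1qa would bring 0.654 CPM, yet without the cells that held a C1q UMI its log2 difference was 0.24. Cxcl2 was 176.2 against 78.8 CPM and higher in all 5 strata. Macrophages make Cxcl2 at 2622 CPM, and the ratio to C1qa would bring 43.3 CPM of the 176.2. Cxcl5 was 73.7 against 125.3 CPM but higher in reporter-high cells of 1 stratum. Ccl2, which draws monocytes, was 266.8 against 164.1 CPM, with 8.21 CPM from the ratio to C1qa, while the related Ccl7 was 348.6 and 272.4 CPM and Ccl11 223.3 and 277.4 CPM.

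The promoters of Cxcl1 and Cxcl2, both on chromosome 5, are shown because NF-kB subunits bind GGG and TTTCC with any 2 bases between them. They are RefSeq windows of GRCm38.p6 made as above, at chr5:90890995-90891240 on the plus strand and chr5:90903649-90903870 on the plus strand. Capitals mark such a run or, for a match on the other strand, GGAAA and CCC with any 2 bases between them.
Cxcl1: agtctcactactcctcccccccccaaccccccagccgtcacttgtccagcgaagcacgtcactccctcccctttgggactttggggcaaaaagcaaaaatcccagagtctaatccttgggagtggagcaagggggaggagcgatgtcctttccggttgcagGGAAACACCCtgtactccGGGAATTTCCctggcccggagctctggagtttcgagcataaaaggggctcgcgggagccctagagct
Cxcl2: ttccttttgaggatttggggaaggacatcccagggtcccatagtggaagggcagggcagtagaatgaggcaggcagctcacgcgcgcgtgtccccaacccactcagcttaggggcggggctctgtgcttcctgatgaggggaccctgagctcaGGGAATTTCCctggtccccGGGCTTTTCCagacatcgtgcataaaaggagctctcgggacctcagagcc
Each holds 2 matches, and the 4 do not overlap. Of 3 neutrophil-drawing chemokines with a window all 3 had a match, though of these only Cxcl1 and Cxcl2 were past 1.5-fold higher. Of 12 NF-kB subunits and feedback genes 4 had a match. Among 6851 measured genes 1.75% had one, among all genes with a window 1.65%, and among all single windows 1.41%. The shares describe the listed genes and not these cells.

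Secreted senescence factors were higher in part, with large differences between strata. Of 31 measured growth factors and proteases of the list 5 were past 1.5-fold higher (Serpinb2, Mmp12, Ereg, Mmp13 and Vegfa) and 1 lower (Mmp3), against 1.7% and 1.39% of all measured genes. The list median was 0.13. Serpinb2, an inhibitor of plasminogen activators, was 136.4 CPM in reporter-high and 2.02 CPM in reporter-low cells of the C7 stratum and 235.6 and 88.2 CPM in the Dmkn stratum, but 0.717 and 9.42 CPM in the Thbs4 stratum. In 1 cell lay 25.0% of its reporter-high counts. For Mmp12, a protease of macrophages, the level was 23.3 against 10.3 CPM, and the ratio to C1qa would bring 28.0 CPM, more than was measured. In 1 cell lay 58.8% of its reporter-high counts, and its log2 difference of 1.11 became -0.47 without the cells that held a C1q UMI. Mmp13 had log2 differences from -1.53 to 1.92 in single strata. Il6 was 189.9 and 143.3 CPM and none of the 9 measured genes of the IL-6 family, nor of the 5 of the IL-1 family, was past 1.5-fold. The IL-1 receptor Il1r1 was 277.0 and 361.9 CPM.

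Cxcl14 was the most abundant gene among those past 1.5-fold lower and lower in every stratum. It encodes a chemokine that resting fibroblasts and epithelia secrete and lies at chr13:56288643-56296551 in mm10, minus strand. Cxcl14 was 1256 CPM in reporter-high and 3244 CPM in reporter-low cells of the Thbs4 stratum, 604.3 and 2826 in the C7 stratum, 221.2 and 627.9 in the Dmkn stratum, 1062 and 2043 in the Cemip stratum and 754.8 and 1951 in the Stra6 stratum. Reporter-low cells were above reporter-high cells in all 5, by a log2 difference of 0.94 or more in size. Over strata it was 779.7 CPM (759.9 to 799.9) against 2139 CPM (2124 to 2153), a log2 difference of -1.45, and 1687 CPM in Tom negative fibroblasts. Across reporter levels it was 2032, 2151, 1663, 835.8 and 791.1 CPM from none to the highest, with the widest step at 500 CPM of tdTomato. A Cxcl14 UMI was found in 58.9% of reporter-high and 68.2% of reporter-low cells thinned to 5000 UMIs, and in 36.5% of Tyrobp-high cells, at 137.5 CPM. Without thinning the shares were 84.3% and 90.1% of the fibroblast groups.

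Aldh1a2, which makes retinoic acid, was lower in every stratum as well. It was 12.1 CPM (10.2 to 14.4) in reporter-high and 52.8 CPM (50.7 to 55.0) in reporter-low cells, a 4.37-fold lower level. By stratum it was 12.9 and 71.4 CPM (Thbs4), 33.8 and 100.7 CPM (C7), 4.17 and 12.1 CPM (Dmkn), 4.14 and 44.6 CPM (Cemip) and 5.44 and 35.2 CPM (Stra6). Tom negative fibroblasts held 42.2 CPM. The reporter-high value rested on 177 UMIs, of which 1 cell held 34.5%. Adh1, an alcohol dehydrogenase that can act on retinol, was 17.4 against 52.3 CPM and 27.4 CPM in Tom negative fibroblasts. With Leiden clusters as strata its log2 difference of -1.53 shrank to -0.11, while that of Aldh1a2 was -1.66. Without cells that had no stratum marker above its mean, that of Aldh1a2 was -0.82.

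Gzme, a granzyme better known from cytotoxic lymphocytes, had the largest ratio among genes at 50 CPM or more that were lower in every stratum. It was 2.15 CPM in reporter-high and 42.3 CPM in reporter-low cells of the Thbs4 stratum, 6.65 and 62.1 in the C7 stratum, 1.51 and 48.3 in the Dmkn stratum, 27.9 and 102.9 in the Cemip stratum and 9.07 and 39.5 in the Stra6 stratum. Over strata the levels were 9.47 CPM (7.24 to 12.2) and 59.0 CPM (56.4 to 61.8). The reporter-high counts were 80 UMIs, and 1 cell held 20.0% of them. A Gzme UMI was found in 13.5% of reporter-high and 18.0% of reporter-low cells, and after thinning in 1.83% and 6.09%, with 0.907% in Tyrobp-high cells. Lymphocyte markers summed to 3.87 and 3.15 CPM in the groups. Gzmd, of the same granzyme family, was 1.41 and 13.6 CPM, and as near copies they may share reads.

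**Figure D5:**
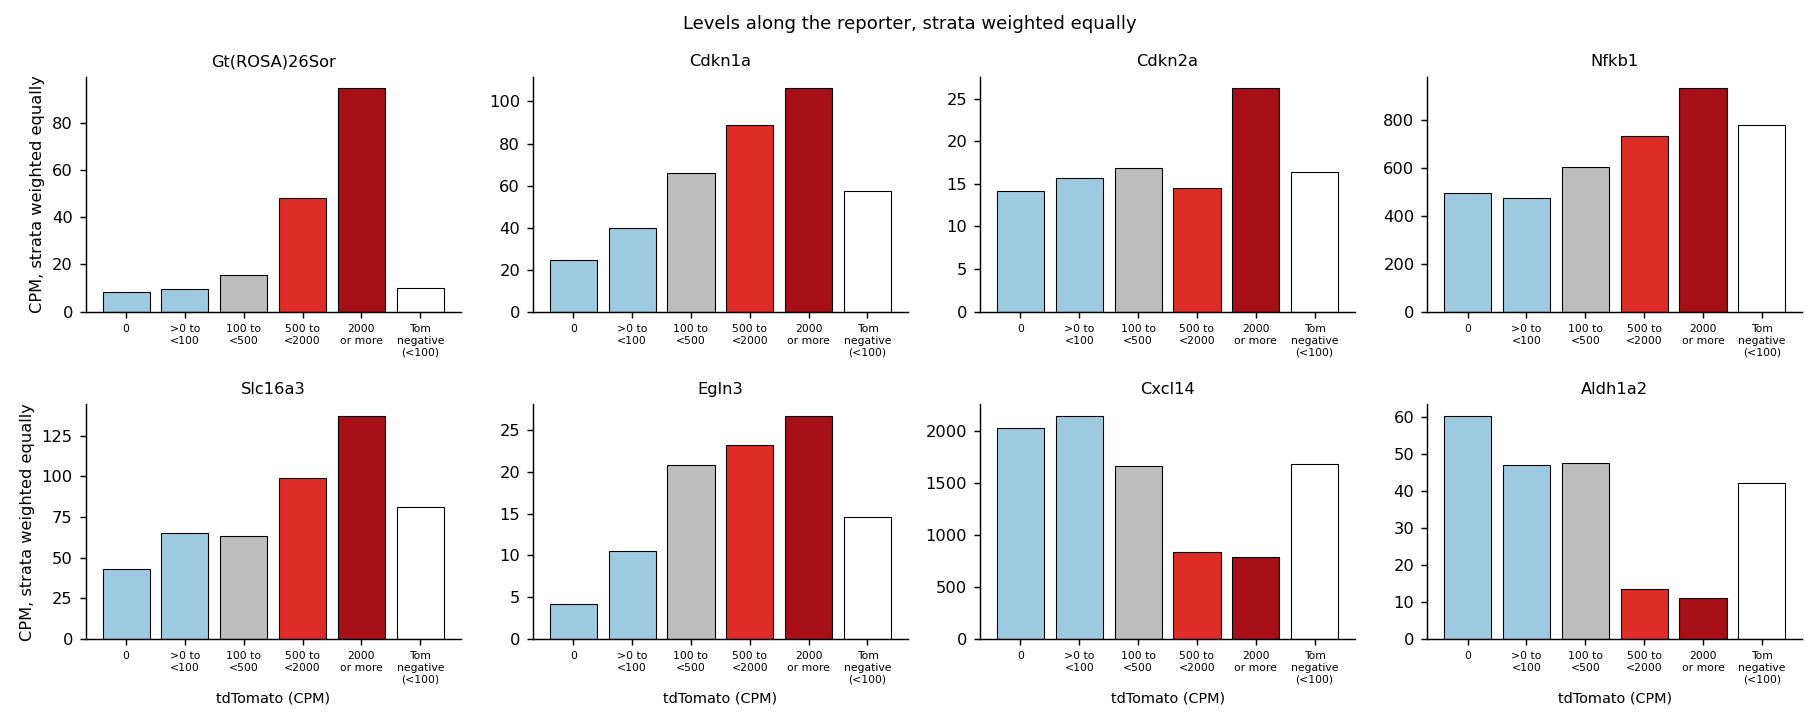
Level of 8 genes (CPM, strata weighted equally) in Tom positive fibroblasts of 5 reporter levels (405, 649, 166, 157 and 111 cells) and in Tom negative fibroblasts below 100 CPM of tdTomato. The smallest strata of the 5 levels held 16, 39, 15, 12 and 8 cells. Cdkn1a runs from 24.6 to 106.3 CPM and Cxcl14 from 2032 to 791.1 CPM, and the Tom negative bars lie between those ends for both.

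Matrix genes typical of tendon and cartilage were lower as a group in reporter-high cells, but not in the intermediate cells. Of 23 listed genes 16 were measured, none past 1.5-fold higher and 6 lower (Fmod, Comp, Cilp, Tnmd, Mkx and C1qtnf3), against 1.39% of all measured genes lower. All 16 lay below 0, with a median of -0.31 and stratum medians of -0.52 to -0.13. Fmod, which binds collagen fibrils, was 79.6 CPM in reporter-high and 249.1 CPM in reporter-low cells of the Thbs4 stratum and 30.9 against 77.0 CPM over strata. Cilp, a cartilage matrix protein, was 236.1 against 459.9 CPM, Comp, a collagen-binding protein, 12.3 against 29.9 CPM, and Tnmd, a tendon membrane protein, 23.4 against 39.7 CPM. With Leiden clusters as strata the list median was -0.10 and Fmod was -0.15. By list median Tom negative fibroblasts were near the reporter-high level, with -0.05 for reporter-high and 0.32 for reporter-low cells minus Tom negative ones. Comp, at 30.7 CPM in them, was instead near its reporter-low level. In fibroblasts of intermediate reporter level the list median was 0.04 against reporter-low cells. There Fmod was 202.6, Cilp 510.7 and Comp 43.2 CPM, above the reporter-low level, and Tnmd was 30.8 CPM, below it.

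Few other matrix genes were past 1.5-fold, though several groups lay mostly below 0. Among all measured genes 1.7% were past it higher and 1.39% lower. Of 12 measured fibrillar and associated collagens, Col7a1 was past 1.5-fold higher and Col8a1, at 292.5 against 519.1 CPM, past it lower, with a median of 0.01. No member of 14 basement membrane genes, of 18 collagen processing enzymes or of 7 small leucine-rich proteoglycans was past 1.5-fold, although 6 of those 7 lay below 0. Of 16 measured genes of elastic fibres and microfibrils 14 lay below 0, with a median of -0.12 and stratum medians of -0.28 to -0.05. Ltbp2, a microfibril protein, was past 1.5-fold lower at 45.2 against 77.5 CPM. Of 16 contractile genes of myofibroblasts, Tagln was past 1.5-fold lower at 326.8 against 543.5 CPM, and Acta2 was 349.0 and 445.8 CPM. In that list 14 of the 16 lay below 0, with a median of -0.16. The log2 difference of Acta2 ran from -1.79 to 1.35 over strata. Ctgf, a secreted target of TGF-beta, was 592.3 against 1015.5 CPM, while Tgfbi, also induced by TGF-beta, was 49.9 against 31.1 CPM. The ratio to C1qa would bring 14.03 and 2.18 CPM of Tgfbi to the groups, and without the cells that held a C1q UMI its log2 difference was 0.14. Of 10 measured hyaluronan genes Tmem2 and Ugdh, which makes a hyaluronan precursor, were past 1.5-fold higher and none lower, with a median of 0.30. The synthases Has1 and Has2 were 317.7 and 267.9 CPM and 40.7 and 29.4 CPM.

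Complement genes were lower in part. Of 12 measured genes 3 were past 1.5-fold lower (C2, Cd59a and Masp1), against 1.39% of all measured genes, and none higher, with a median of -0.28 and 11 below 0. C2, a subunit of the C3-cleaving enzyme, was 45.3 against 74.2 CPM, and Masp1, a protease of the lectin pathway, 13.1 against 32.2 CPM, both lower in all 5 strata. C3 was 547.2 and 698.9 CPM and the C1 inhibitor Serping1 986.5 and 1310 CPM. Other genes lower in every stratum were Smoc2, a matricellular protein, at 129.7 against 244.8 CPM, Dio3, which inactivates thyroid hormone, at 27.9 against 53.7 CPM, and Abca8a, a lipid transporter, at 42.5 against 92.0 CPM. Txnip, which is induced by glucose and inhibits thioredoxin, was 58.9 against 95.9 CPM. Ptn, Chl1, Kcnma1 and C1qtnf3 had ratios of 0.61 to 0.64, and Fgf10, a growth factor for epithelium, was 10.5 against 22.2 CPM.

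Class II and interferon-induced genes were higher in part. The class II genes Cd74, H2-Aa, H2-Ab1 and H2-Eb1, which present antigen and are used to define antigen-presenting fibroblasts, were past 1.5-fold higher, at 1.88- to 3.31-fold, against 1.7% of all measured genes, and were 4 of the 6 measured members of that list. Cd74 was 42.3 against 12.8 CPM, and the ratio to C1qa would bring 58.3 CPM, more than was measured, for H2-Aa 20.3 CPM beside 18.6 measured and for H2-Eb1 14.7 CPM beside 11.1 measured. These amounts would differ with another macrophage marker. For H2-Ab1, at 29.3 against 11.1 CPM and higher in all 5 strata, the ratio to C1qa would bring 15.3 CPM, less than was measured. Its log2 difference of 1.33 was 1.003 without the cells that held a C1q UMI and 0.52 with Leiden clusters as strata. Across reporter levels Cd74 was 8.27, 14.4, 17.3, 63.5 and 9.66 CPM from none to the highest. In the highest level H2-Aa was 5.61, H2-Eb1 2.41 and H2-Ab1 23.6 CPM. Tom negative fibroblasts held 62.6 CPM of Cd74, 39.0 of H2-Aa, 31.2 of H2-Ab1 and 23.9 of H2-Eb1, each above the reporter-high level. For each class II gene 1 cell held 25.6 to 33.3% of the reporter-high counts. The interferon-induced genes Ifit1, Ifit2, Ifit3 and Irf7 were the 4 past 1.5-fold higher of 21 measured. Ifit1 was 92.1 and 17.8 CPM in the Cemip stratum, with 20 reporter-high cells, and 1.36 and 1.70 CPM in the Stra6 stratum. Without the Cemip stratum the log2 difference of Ifit2 was -0.24 and that of Ifit3 -0.53. Of 26 measured genes of cell division and DNA replication, Ccnb2 was past 1.5-fold higher and Mcm2, Mcm5 and Tyms lower. Among all measured genes 1.7% were past it higher and 1.39% lower. The median of the division list was -0.25, with 17 genes below 0 and 9 above. By stratum its median ran from -0.92 (Thbs4) to 0.21 (Cemip), and without cycling cells the list median was 0.00226.

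Set beside the Tom negative library, both groups of Tom positive fibroblasts differed in about as many genes. Reporter-high cells were past 1.5-fold higher than Tom negative fibroblasts in 65 of 8711 genes (0.746%) and lower in 95 (1.09%). Reporter-low cells were higher in 54 of 8664 genes (0.623%) and lower in 96 (1.11%). The same Tom negative cells serve in both counts. Median depth was 38836 UMIs in Tom negative fibroblasts. Cells with no tdTomato UMI had a median of 36100 UMIs and those with some, but less than 100 CPM, 44624, so the division at 0 depends in part on depth.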

How the data were processed

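The deposited counts are whole numbers of UMIs per gene and barcode, and tdTomato is one of the features. Per the submitters' processing notes the authors used the build mm10 and Cell Ranger 7.0.1, with no cell calling settings stated. The Tom positive library held 128275546 UMIs and the Tom negative library 164646314. Doublets were left in, and leaving out those marked by Scrublet was an alternative.

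Counts of a group were summed per stratum, scaled to CPM, and averaged over strata with equal weight. Differences are log2 of CPM plus a pseudocount of 1, and a gene counts as past 1.5-fold from 10 CPM in either group. Intervals are exact Poisson within a stratum, gamma for weighted levels and Wilson for shares, at 95%. They cover counting error only, and cells are not replicates. Z-scores for the strata used log counts per 10000, and Tom negative cells were placed with the mean and SD of the Tom positive library. The calculation was tested on simulated counts of 8459 genes, of which 200 were set 2-fold apart. It recovered 100% of the raised and 99% of the lowered genes, called 0 of 8259 unchanged genes, and its intervals held the true value for 94.7% of genes. The simulated stratum sums varied by counting error alone, without the variation between cells that the data hold. These shares therefore check the calculation and do not give its error rate on the data.

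Named genes are the 15 highest and 15 lowest (12 and 15 qualified) at 50 CPM or more, past 1.5-fold and on the same side in every stratum, then up to 4 members of each of 44 lists with the largest difference at 10 CPM or more, and 5 fixed genes. Of the qualifying genes, 2 are left out of the text and figures; every count includes them. Not ranked were genes of the rule, mitochondrial, ribosomal protein, haemoglobin and predicted genes, repeated names, and genes below 1/5 of their level in Tyrobp-, Pecam1-, Rgs5- or Epcam-high cells. Further members are given with their list. Gzmd, Fas, Icam1, Vcam1 and other list members outside this rule were named after their values were seen. The cells and the lists were chosen with earlier results of these data known. Listed names without a match were Leprel1, Mx2, Il36g, Figf and C5. Gene coordinates are from GENCODE M21 and promoter windows from the RefSeq table of GRCm38.p6. Analysis used Python 3.11.15, numpy 2.4.6, scipy 1.17.1, pandas 2.3.3 and scanpy 1.11.5. Up to 25 alternatives were tried, of which 4 were chosen after the data were seen.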

Additional observations from a re-analysis of the deposited data

How the results depend on the processing

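Of 77 named genes past 1.5-fold, 17 were past it under every alternative run and 65 kept their side of 0; of 8 lists with a median of 0.25 or more in size, 5 kept their side. The 148 genes higher in reporter-high cells became 625 at a minimum of 1 CPM, 36 at 50 CPM, 315 without strata, 228 without the Stra6 stratum, 560 with cells thinned to 5000 UMIs and 259 without cells that had no stratum marker above its mean. The 121 lower became 398 at 1 CPM, 36 at 50 CPM, 222 without strata, 189 with 1000 against 50 CPM of tdTomato, 514 with thinning and 233 without cells holding a C1q UMI. Of the 65 genes higher than in Tom negative fibroblasts there were 307 at 1 CPM, 13 at 50 CPM, 104 without the Stra6 stratum, 34 without each gene's highest cell, 161 without cells lacking a marker and 130 without C1q cells; the 95 lower became 350, 25, 143 (1000 against 50 CPM), 155 (highest cell) and 249 (C1q). For reporter-low cells the 54 became 153, 14, 111 without strata and 83 without C1q cells, and the 96 became 350, 29 and 197 without strata. Fits on Leiden clusters (227 reporter-high and 611 reporter-low cells) or thinned cells were not run against Tom negative cells.

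The sign changes among the named genes past 1.5-fold and among the 8 lists were as follows. Antigen-presenting genes had a median of -0.55 at 50 CPM, -0.11 with other cells' genes below 50 CPM and -0.32 without C1q cells; TIMP inhibitors had -0.0778 at 50 CPM, and cell division genes 0.00226 without cycling cells. With Leiden clusters as strata Ifit3 was -0.18, Ifit2 -0.0629, H2-Eb1 -0.40, Irf7 -0.00217, Mmp12 -0.39, Mmp13 -0.34, Lgr5 0.47, Adamtsl2 0.0801, Adamts16 0.29 and Apod 0.0477. Ifit3 was -0.0493 without strata and -0.53 without the Cemip stratum, where Ifit2 was -0.24. With other cells' genes below 50 CPM, H2-Eb1 was -0.51 and Mmp12 -0.42; without Scrublet doublets they were -0.0199 and -0.41, and without C1q cells -0.41 and -0.47, where H2-Aa was -0.23 and Mmp3 0.0306. Mmp12 was -0.44 without the cluster led by Tff1, Retnla and Krt8, and Mmp13 was -0.56 with a single limit of 250 CPM. The cause was not tested, beyond fewer genes or cells entering those fits. No paired analysis was possible because both groups came from 1 library. Levels below about 3 UMIs of a group, 0.270 CPM for reporter-high cells, are not resolved.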
